A study of Homo sapiens with 2 samples.

Results

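The 10 genes described here encode intermediate filament proteins: vimentin (VIM), the keratins KRT7, KRT8, KRT80, KRT18 and KRT19, nestin (NES) and the nuclear lamins LMNA, LMNB1 and LMNB2. They were taken by gene name from a table of 58233 gene IDs, and each name had 1 line in it. RNA was measured by sequencing in MDA-MB-231 cells, an established human breast cancer line with mesenchymal features. Cells carried a lentiviral control hairpin (shCon) or a lentiviral hairpin against MPP7 (shMPP7), the gene of a junctional scaffold protein. Each culture received lentivirus at 10 infectious units per cell, had its medium changed at 12 h, was viewed by fluorescence microscopy at 72 h and was kept under puromycin for 7 days. The labels do not say whether either line was a single clone. There was 1 library per group, so no difference below has a replicate check and no p-value is given.

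Intermediate filaments are rope-like polymers that give cells and nuclei mechanical strength. Vimentin forms the cytoplasmic network of mesenchymal cells and is a common marker of the epithelial-mesenchymal transition, while keratins form that of epithelial cells. Keratins are obligate heteropolymers in which a type I chain pairs with a type II chain, so the levels of both types are usually matched. Lamins line the inside of the nuclear envelope; A-type lamins stiffen the nucleus, and B-type lamins stay attached to the membrane through a lipid anchor. MDA-MB-231 cells are known to express vimentin together with simple epithelial keratins.

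Estimated counts summed to 23928620 in shCon and 24513089 in shMPP7. MPP7, the target of the hairpin, had 42 and 21 counts, a ratio of 0.488 (95% interval 0.275 to 0.843). Its summed count was under the minimum set for a counted gene, so the size of the drop is known only roughly. In FPKM the drop was smaller, from 0.5 in shCon to 0.316 in shMPP7. Ratios are shMPP7 over shCon of CPM values, which are counts divided by the library total, and their 95% intervals are exact and cover counting error only. Markers of the line were checked. CD44, a surface glycoprotein typical of basal-like lines, had 1088 FPKM in shCon and 1129 in shMPP7, whereas CDH1 (E-cadherin) had 3 counts and 1 count. CDH2 (N-cadherin) was also near the floor, at 7 counts in each library, while EPCAM was present at 165 and 148 counts. ESR1, the estrogen receptor gene, had 3 counts and was listed at 0 in shMPP7. PGR, the progesterone receptor gene, had 5 and 3 counts, and ERBB2 had 2442 and 2695. Among markers of other cells, NEFL (neurons) and KRT1 (epidermis) were listed at 0 in both libraries, DES (muscle) had 4 counts and 1 count, and PTPRC (leukocytes) had 0 and 1. KRT10 (epidermis) was present at 625 and 846 counts, PECAM1 (endothelium) at 68 and 73, and GFAP (glia) at 52 and 74.38. Listed at 0 in both libraries were the basal keratins KRT5, KRT14 and KRT17. In bulk RNA, fewer cells of a type and less RNA per cell cannot be told apart.

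Reads of KRT8 and KRT18 can be shared with the many processed pseudogenes that both genes have left in the genome. The table listed 50 KRT8 and 67 KRT18 pseudogenes, of which 15 and 14 were above 0. Together they held 79.15 counts in shCon and 100.64 in shMPP7 for KRT8, equal to 0.487% and 0.617% of the counts of KRT8 itself. For KRT18 they held 21 and 14 counts, or 0.255% and 0.169%. The KRT8 copies with the most counts were KRT8P12 (55 and 68 counts), KRT8P33 (8 and 9) and KRT8P14 (4 and 7), and the KRT18 copy with the most was KRT18P34 (3 and 5). A 90-base stretch near the middle of the KRT18 alignment, within its coding sequence, is shown above the same stretch of KRT18P34, because it shows how many differences a read can use to tell them apart. Capitals mark the bases that differ. The stretch of KRT18 lies at chr12:52951481-52951570 (GRCh38, plus strand) and that of KRT18P34 at chr3:157163205-157163294 (minus strand). The letters are those of GENCODE 29 transcripts.
KRT18: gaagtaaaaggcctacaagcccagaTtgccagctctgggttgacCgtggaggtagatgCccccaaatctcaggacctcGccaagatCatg
KRT18P34: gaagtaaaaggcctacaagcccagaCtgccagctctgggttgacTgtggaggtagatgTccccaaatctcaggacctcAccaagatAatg
The pair differed at 5 of the 90 positions. Over the whole alignments, identity was 85.978% across 1462 bases for KRT8P12 and 90.101% across 1293 bases for KRT18P34. The closest KRT8 copy, KRT8P3, was 97.101% identical over 1449 bases and had 0 and 2 counts.

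Vimentin was by far the most abundant filament transcript. Its level was 2791 FPKM in shCon and 3317 in shMPP7 (FPKM is scaled per transcript length and library size). In mean FPKM it ranked 35 among protein-coding genes. LMNA followed with 491 and 493 FPKM (rank 219) and KRT8 with 428 and 433 (rank 243), so vimentin stood 6.21-fold above the next filament gene. Both neighbours below vimentin were thus nearly equal in the 2 libraries. KRT7 had 263 and 292 FPKM, KRT18 269 and 274, and KRT19 225 and 235. These 3 keratins lay close together, and the order of KRT7 and KRT18 was opposite in the libraries. LMNB2 had 184 and 201 FPKM, LMNB1 88.1 and 94.8, and KRT80 82.6 and 80.3. NES, which marks neural progenitors and some aggressive tumours, was nearly silent at 0.078 and 0.153 FPKM, 26440-fold below vimentin in mean FPKM.

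**Figure D1:**
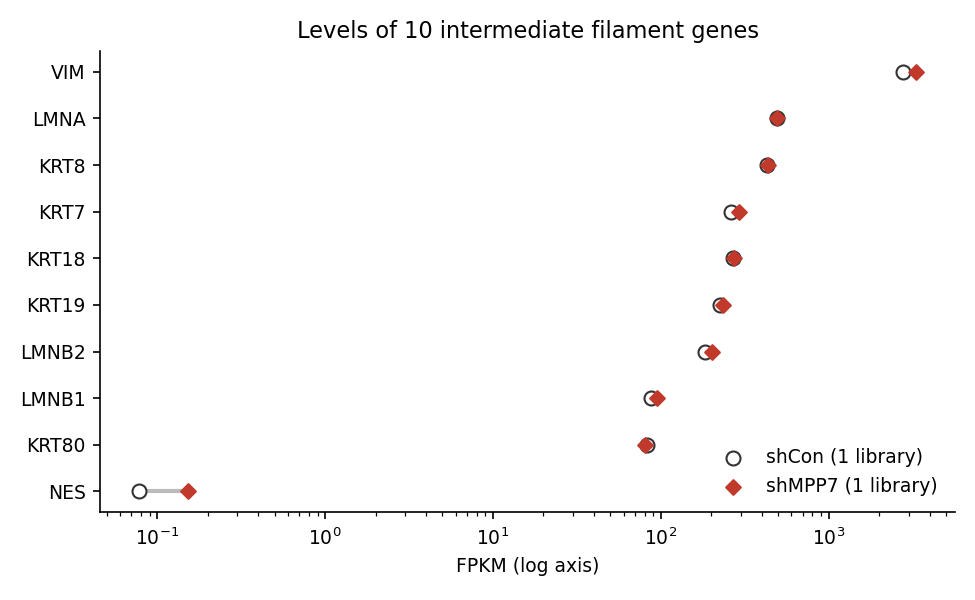
Level of each of the 10 genes in FPKM (log axis) in the shCon library (open circles) and the shMPP7 library (diamonds), ordered by mean. Vimentin stands alone at 2791 and 3317 FPKM, 8 genes lie between 80.3 and 493 FPKM, and NES lies below 0.2 FPKM.

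Between the libraries the filament genes differed little. NES had 30 counts over both libraries. The other 9 genes had at least 10481 counts each and were compared. None of the 9 was 2-fold apart, against 0.263% of 12155 genes with at least 100 counts and 0.0395% of the 5067 genes with at least 2000. VIM alone (1 of 9) was at least 1.1-fold higher, against 13.5% and 7.34% of these gene sets. None was at least 1.1-fold lower, against 25.7% and 15.2%. The counting interval lay above 1 for 2 of the 9 (VIM and KRT7), against 13.8% and 21.4%. It lay below 1 for 3 of the 9 (KRT80, LMNA and LMNB2), against 21.5% and 24.8%. With so few genes these counts are near the background. All but VIM lay within the central range of well-counted genes, 0.846 to 1.117 (5th to 95th percentile), and VIM lay just above it. The median log2 CPM ratio of the 9 was -0.03, beside -0.02 over all genes with at least 100 counts and 0.00 over those with at least 2000. It turned slightly positive with 2 of the 3 other scalings and in FPKM. So did the median over all genes with at least 100 counts. That median was 0.014 with median-of-ratios scaling, 0.017 with upper-quartile scaling and 0.041 in FPKM with a pseudocount of 1. It was also positive with TMM scaling (0.0051) and after subtracting the part of the ratio that follows transcript length and GC content (0.0026). In those settings the median of the 9 stayed below 0, at -0.0036 and -0.0584.

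**Figure D2:**
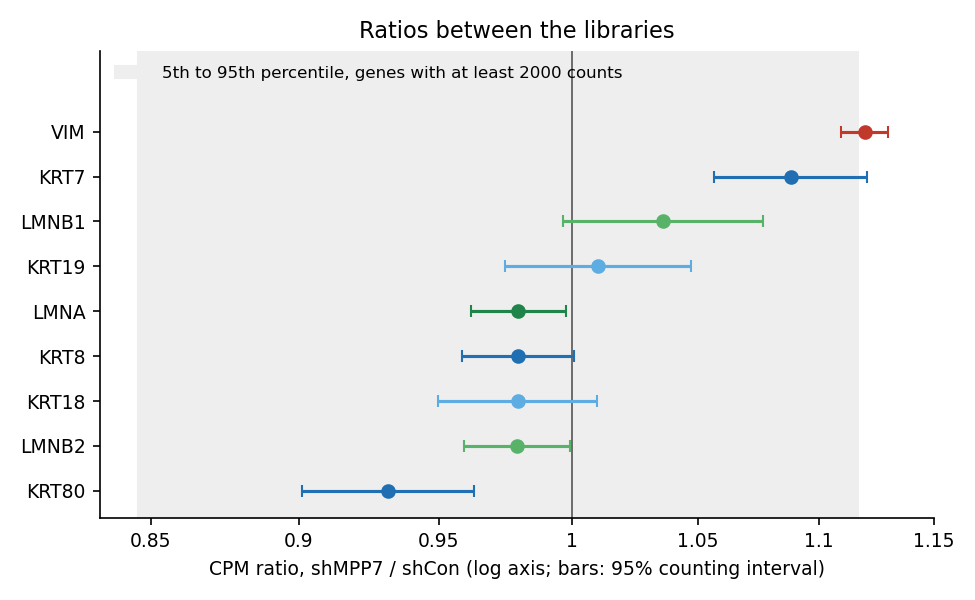
CPM ratio (shMPP7 over shCon, log axis) of the 9 counted filament genes with 95% counting intervals, coloured by class (red vimentin, dark and light blue type II and type I keratins, dark and light green A-type and B-type lamins). The grey band spans the 5th to 95th percentile of genes with at least 2000 counts, and VIM, just above its upper end of 1.117, is the 1 gene with its ratio outside.

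VIM was the filament gene with the highest ratio among the 9. It lies on chromosome 10, positions 17228259 to 17237593 (GRCh38, plus strand), and had 88934 counts in shCon and 102008 in shMPP7. It took 0.372% of all counts in shCon and 0.416% in shMPP7. The CPM ratio was 1.12 (1.11 to 1.13). Of the genes with at least 2000 counts, 4.74% had a ratio this high or higher, and of the 329 genes with at least 20000 counts, 3.65%; VIM itself is counted in both. In FPKM the ratio was 1.19, and under each of 8 alternatives in processing the log2 ratio stayed above 0, from 0.13 to 0.25. The lowest of these came after subtracting the part of the ratio that follows transcript length and GC content across genes. Summing lines of a name and adding pseudogene counts were among the 8. Neither could move the ratio, as VIM had 1 line and a pseudogene count of 0. FPKM with pseudocounts of 1 and 0.1 gave nearly the same value. An antisense gene, VIM-AS1, overlaps the start of VIM by 1727 bases and had 51.79 and 58.21 counts; a further one, AL133415.1, had 0 and 3.31. Whether counting used strand is not stated, so reads in these overlaps cannot be told apart.

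The summed level of the group differed by less than that of vimentin alone. The 10 genes together had 7566 CPM in shCon and 7976 in shMPP7, a difference of 409 CPM. VIM itself was higher by 445 CPM, and the other 9 together were at 3850 and 3814 CPM. Vimentin made up 49.1% of the summed filament CPM in shCon and 52.2% in shMPP7. Relative to LMNA, the VIM count was 1.14-fold higher in shMPP7 (Wald 95% interval 1.12 to 1.17), and relative to the sum of all keratins it was 1.12-fold higher (1.103 to 1.14). Comparisons within a library do not depend on how libraries are scaled, and their intervals again cover counting error only.

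**Figure D3:**
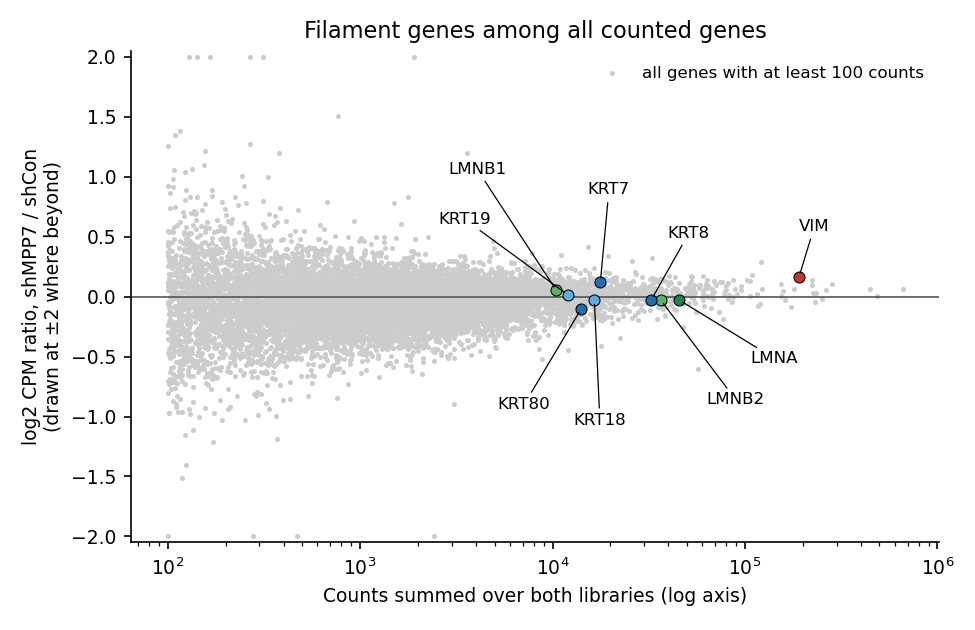
Log2 CPM ratio (shMPP7 over shCon) against counts summed over both libraries (log axis) for all genes with at least 100 counts (grey), with the 9 filament genes coloured by class. The spread narrows as counts rise, and VIM at 0.16 lies at the upper side of genes of like count while the lamins and most keratins lie close to 0.

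The keratins as a whole were level in CPM. Of 55 keratin genes in the table, 37 were listed at 0 in both libraries, and the 5 keratins of this group held 98.1% of keratin counts in shCon and 97.7% in shMPP7. All keratins together stood at 1959 CPM in shCon and 1958 in shMPP7. In FPKM their sum was higher in shMPP7, at 1296 in shCon and 1348 in shMPP7. Type II keratins summed to 1.49 times the type I keratins in shCon FPKM and 1.50 times in shMPP7.

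KRT8 and KRT18 form the first keratin pair of simple epithelia, and both stood at the same ratio. KRT8 (chromosome 12, positions 52897187 to 52949954, minus strand) had 16244 and 16299 counts, a ratio of 0.979 (0.958 to 1.00). KRT18 (chromosome 12, positions 52948871 to 52952901, plus strand) had 8236 and 8263 counts, also a ratio of 0.979 (0.950 to 1.01). Both intervals included 1, and both lay below 1 with the trend removed. The KRT8 level was 1.59 times that of KRT18 in shCon FPKM and 1.58 times in shMPP7. In GENCODE 29 the 5′ ends of the 2 genes overlap on opposite strands over 1084 bases, so reads there could be counted for either. The KRT18 transcript matched KRT8 transcript sequence on the opposite strand over 308 bases at 99.675% identity. How many reads fell in the overlap was not measured.

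KRT7, a type II keratin of ductal and glandular epithelium, was higher in shMPP7. It lies on chromosome 12, positions 52232520 to 52252186 (plus strand), and had 8385 counts in shCon and 9346 in shMPP7. The ratio was 1.09 (1.06 to 1.12), and 10.3% of genes with at least 2000 counts had a ratio this high or higher. Relative to KRT8, its count was 1.11-fold higher (Wald interval 1.07 to 1.15). The log2 ratio was 0.12 and stayed above 0 under all 8 alternatives, down to 0.05 with the length and GC trend removed. Of the 8, summing lines and adding pseudogene counts could not move it, as KRT7 had 1 line and no listed pseudogene. Its antisense gene KRT7-AS had 79.39 and 69.58 counts. KRT86, which overlaps KRT7 on the same strand by 2887 bases, had 45 and 54.11.

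KRT80, a type II keratin found near desmosomes and in differentiating epithelium, was lower in shMPP7. It lies on chromosome 12, positions 52168996 to 52192000 (minus strand), and had 7211 and 6882 counts. The ratio was 0.932 (0.901 to 0.963), and 21.2% of genes with at least 2000 counts had a ratio this low or lower. The log2 ratio of -0.10 stayed below 0 under all 8 alternatives, although summing lines and adding pseudogene counts could not move it here either. KRT80 and KRT7 are of the same type and lie on the same chromosome, yet the KRT80 count relative to KRT7 was 0.856 times as high in shMPP7 as in shCon (0.819 to 0.895).

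KRT19, a small type I keratin that also marks ductal cells, had nearly the same level in both libraries. It lies on chromosome 17, positions 41523617 to 41528308 (minus strand), and had 5905 counts in shCon and 6111 in shMPP7. The ratio was 1.01 (0.975 to 1.05), an interval that includes 1 with library totals. The interval lay above 1 with upper-quartile scaling (1.0006 to 1.08) and below 1 with the trend removed (0.926 to 0.995), so no direction is given. Its log2 ratio was 0.01 and turned to -0.06 when the length and GC trend was removed.

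The lamins were also close to level. LMNA, whose transcripts encode lamins A and C, lies on chromosome 1, positions 156082573 to 156140089 (plus strand), and had 22777 and 22857 counts. The ratio was 0.980 (0.962 to 0.998). LMNB2 (chromosome 19, positions 2427638 to 2456996, minus strand) had 18268 and 18324 counts, with a CPM ratio of 0.979 (0.959 to 0.999). Both intervals lay just below 1, but both log2 ratios turned to above 0 with median-of-ratios and upper-quartile scaling and in FPKM, so no direction is given for them. LMNB1 (chromosome 5, positions 126776623 to 126837020, plus strand), a B-type lamin that tends to be lost in senescent cells, had 5085 and 5396 counts. Its ratio was 1.04 (0.997 to 1.08), an interval that includes 1. It lay above 1 with TMM (1.01 to 1.096), median-of-ratios and upper-quartile scaling and with the trend removed. Relative to LMNA its count was 1.06-fold higher in shMPP7 (Wald interval 1.01 to 1.103).

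The balance of lamin types depended on the unit. In FPKM, LMNA stood at 1.80 times the sum of LMNB1 and LMNB2 in shCon and 1.66 times in shMPP7. In counts the same balance moved by a factor of 0.988 (Wald interval 0.963 to 1.01). Among the lamins the units parted most for LMNB2, with an FPKM ratio of 1.09 and a CPM ratio of 0.979. The transcript length implied by its counts and FPKM was 4140 bases in shCon and 3716 in shMPP7. TIMM13 overlaps LMNB2 on the same strand by 257 bases and had 2641.81 and 2632.95 counts. Any sharing of reads between LMNB2 and TIMM13 was not tested. Across genes with at least 2000 counts, the log2 FPKM ratio exceeded the log2 CPM ratio by a median of 0.06. For LMNB2 it did so by 0.16, and 10.1% of genes had a gap at least as high. For VIM the gap was 0.09, with 27.4% of genes at least as high, and the implied lengths were 1332 and 1255 bases. The implied length was shorter in shMPP7 for every counted filament gene.

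NES was at the edge of detection. It lies on chromosome 1, positions 156668763 to 156677397 (minus strand), and had 10 counts in shCon (exact Poisson interval 4.80 to 18.4) and 20 in shMPP7 (12.2 to 30.9). The ratio was 1.95 (0.872 to 4.67), so no difference was detectable at this depth.

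**Figure D4:**
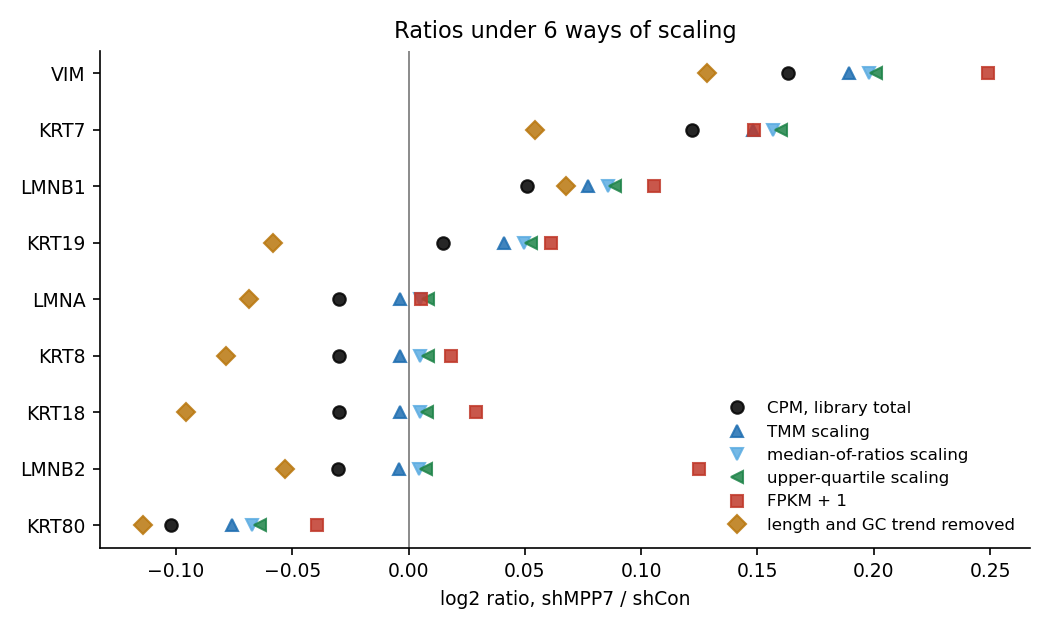
Log2 ratio (shMPP7 over shCon) of the 9 counted filament genes under 6 ways of scaling: CPM by library total, 3 other library scalings, FPKM plus 1, and CPM with the trend in transcript length and GC content removed. VIM, KRT7 and LMNB1 stay above 0 and KRT80 below 0 in each, while LMNA, LMNB2, KRT8 and KRT18 lie on both sides and KRT19 is below 0 after trend removal alone.

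Outside the 5 main keratins, 3 of 50 other keratin genes had at least 100 counts, and they lay on different sides of 1. KRT10, the type I keratin of differentiating epidermis, had 625 and 846 counts, giving 1.32 (1.19 to 1.47). Its usual partner KRT1 was listed at 0 in both libraries. KRT15, a type I keratin of basal epithelium, had 112 and 75 counts, giving 0.654 (0.481 to 0.884). The interval of the hair keratin gene KRT81 included 1, at 1.16 (0.832 to 1.61). Of 11 other cytoplasmic filament genes, 4 had at least 100 counts and all 4 intervals included 1. SYNM, encoding synemin, which copolymerises with vimentin, was the best counted at 876 and 844 counts, with a ratio of 0.940 (0.855 to 1.03). GFAP, the glial filament gene, had 52 and 74.38 counts, a ratio of 1.40 (0.961 to 2.02). SYNC, encoding syncoilin, stood at 0.800 (0.539 to 1.21) and BFSP1, encoding the lens filament protein filensin, at 1.07 (0.824 to 1.39).

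Genes for proteins that link filaments to junctions and to other cytoskeletal systems lay on both sides of equality. Of 15 linkers, 11 had at least 100 counts, of which 4 had a ratio above 1 and 7 below it. None had an interval above 1 and 4 had one below it, beside 13.8% and 21.5% of all genes with at least 100 counts. Their median log2 ratio was -0.11, beside -0.02 over all those genes, and -0.02 once the length and GC trend was removed. PLEC, encoding plectin, the main cross-linker of vimentin and keratin filaments, had 75682 and 77849 counts and a ratio of 1.00 (0.994 to 1.01). DST, encoding dystonin, which anchors keratins at hemidesmosomes, had 4837 and 3658 counts, a ratio of 0.738 (0.707 to 0.771). DSP, encoding desmoplakin, the link from keratins to desmosomes, stood at 0.835 (0.775 to 0.898), and the desmosomal cadherin gene DSG2 at 0.856 (0.812 to 0.901). MACF1, a linker of actin and microtubules, stood at 0.907 (0.882 to 0.934). The transcripts of DST, DSP, DSG2 and MACF1 are long, from 5831 to 24319 bases, but so is that of PLEC, at 15249 bases. With the trend removed, the log2 ratios of DST, DSP, DSG2 and MACF1 were -0.22, -0.16, -0.09 and 0.03. MACF1 thus did not keep its direction. FAM83H, encoding a keratin-associated protein, stood at 1.13 (0.929 to 1.37). PPL, encoding periplakin, was under the minimum with 50 counts in shCon and 13 in shMPP7, a ratio of 0.254 (0.126 to 0.474); it was named after its values were seen.

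**Figure D5:**
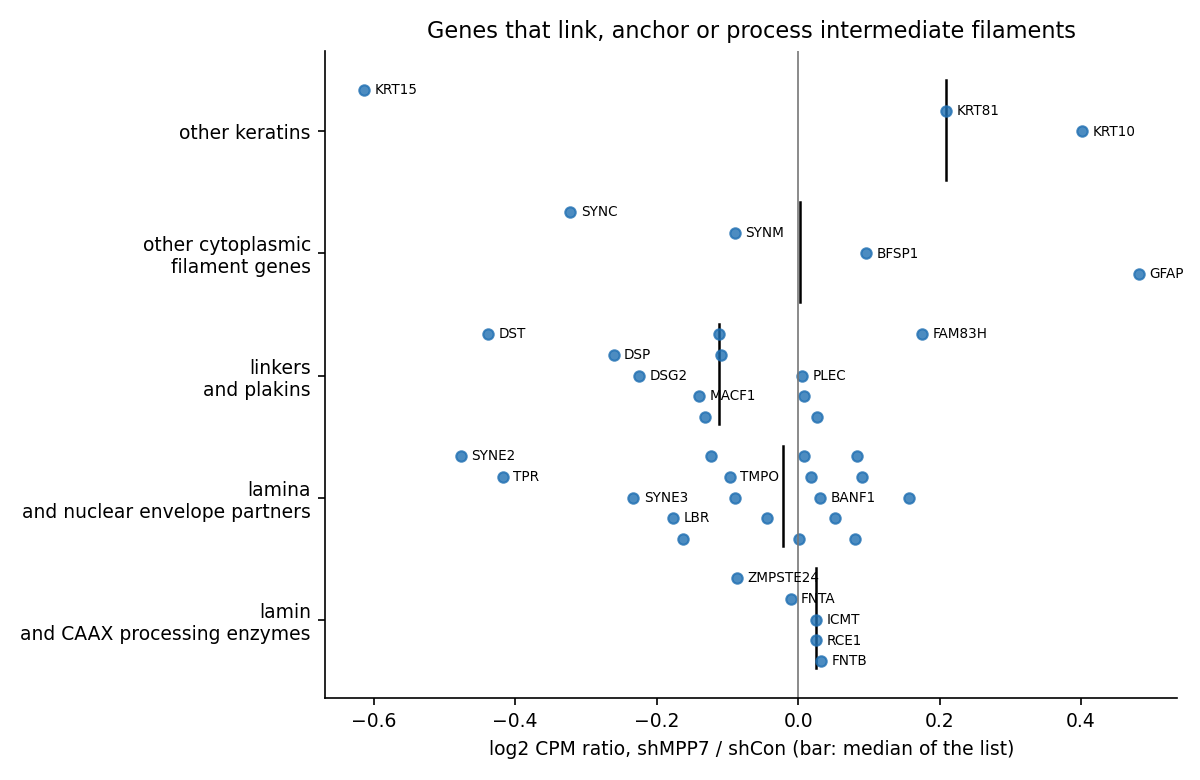
Log2 CPM ratio (shMPP7 over shCon) of genes with at least 100 counts in 5 related lists, 1 point per gene, spread vertically only to separate points, with a black bar at the median of each list. The 11 linkers run from DST at -0.44 to FAM83H at 0.18, and the lamina partners scatter on both sides.

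Partners of the lamina scattered on both sides of equality. All 18 had at least 100 counts; 3 had an interval above 1 and 8 below it, against 13.8% and 21.5% of all genes with at least 100 counts. Their median log2 ratio was -0.02, as over those genes. The 3 above 1, named after their values were seen, were LEMD2 at 1.11, SUN2 at 1.06 and TMEM43 at 1.06. SYNE2, encoding nesprin-2, which ties the nucleus to the cytoskeleton, had 1686 and 1242 counts, a ratio of 0.719 (0.668 to 0.774), and 10.0 and 5.02 FPKM. TPR, a nuclear basket protein gene, stood at 0.749 (0.708 to 0.792), and SYNE3, encoding nesprin-3, which binds plectin, at 0.851 (0.764 to 0.947). LBR, the lamin B receptor gene, stood at 0.885 (0.843 to 0.929) and TMPO, which encodes the lamina-associated LAP2 proteins, at 0.936 (0.907 to 0.965). BANF1, a DNA-bridging factor at the nuclear envelope, stood at 1.02 (0.985 to 1.06). With the length and GC trend removed, the log2 ratios of SYNE2, TPR and SYNE3 were -0.26, -0.21 and -0.26, while those of LBR and TMPO were -0.007 and -0.004. The last list held 5 genes for enzymes or enzyme subunits that process the lipid-anchored end of prelamin A or B-type lamins. None of the 5 was 1.1-fold apart, where 13.5% of all genes with at least 100 counts were that much higher and 25.7% lower. Their ratios ran from 0.942 for ZMPSTE24, the prelamin A protease, to 1.02 for FNTB, a farnesyltransferase subunit. The interval of ZMPSTE24 lay below 1 (0.889 to 0.997), but its log2 ratio was 0.06 with the trend removed. The other named enzymes, FNTA, RCE1 and ICMT, had intervals that included 1.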

How the data were processed

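The deposited table gave, per the file headers, a count and an FPKM value per gene and library. The deposited counts were estimated counts: 71.8% and 73.0% of values above 0 were whole. The FPKM values were used as deposited by the authors. TopHat2 2.0.9, Cuffdiff and hg19 are listed, per the submitters' processing notes, with no role. No source used here names the counting tool. GENCODE 29 (GRCh38) holds 99.4% of the gene IDs, so which build underlies the table is not settled. Positions and transcripts come from GENCODE 29 by gene ID. The transcript used was the longest one tagged principal, or else the longest.

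Counts were divided by library totals to give CPM, and rounded for exact intervals (Clopper-Pearson, conditional on the summed count). Ratios of 2 genes within a library used Wald intervals on the log odds ratio. With 1 library per group, intervals cover counting error only. Reads without molecular identifiers are not independent molecules, so the intervals may be too narrow even for that. There were 1 library per group and no replicates, so no test was made. Names occurring several times took the line with the most counts. A gene was counted at 100 or more counts over both libraries, with limits of 2-fold and 1.1-fold. The 10 genes and the 5 lists were chosen with earlier results of these data known. In each list, the 4 genes with the largest log2 ratio in either direction and the 2 with the highest FPKM are named. With 2 libraries no genes of like pattern are given, only ranks. Near-identical transcripts were searched with blastn 2.17.0. TMM factors came from edgeR 4.0.16, used for scaling only. Ratio recovery and interval coverage were tested on simulated data. The simulated counts were Poisson draws with known 2-fold changes, as the intervals assume, so this checked the calculation only. It could not test spread between cultures or smaller differences. Python 3.11.15, pandas 2.3.3 and scipy 1.17.1 were used. The sequence of 1 further stretch is not reported here.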

Additional observations from a re-analysis of the deposited data

How the results depend on the processing

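No paired analysis was possible because each group had 1 library, and no replicate could be left out. The count of genes past 2-fold was 0 under each alternative that recomputed it. For genes at least 1.1-fold higher, the count of 1 became 2 with TMM, median-of-ratios and upper-quartile scaling, in FPKM with a pseudocount of 1 or 0.1, and with no count minimum. It became 0 with the length and GC trend removed and with a 1.2-fold limit. The median log2 ratio of -0.03 became -0.0036 with TMM, 0.0051 with median-of-ratios and 0.0083 with upper-quartile scaling, 0.0612 and 0.0614 in FPKM with pseudocounts of 1 and 0.1, -0.0584 with the trend removed and -0.0076 with no minimum. Intervals below 1 numbered 1 with each of the 3 scalings and 6 with the trend removed, against 3, and intervals above 1 numbered 4 with upper-quartile scaling and 3 with TMM, with median-of-ratios and with the trend removed, against 2. LMNB1 was above 1 in all 4 of these and KRT19 with upper-quartile scaling. Shares over all genes were computed with library totals only, so the counts under the alternatives have no background. With the trend removed, the median log2 ratio over all genes with at least 100 counts was 0.0026, beside -0.0584 for the filament genes. The log2 ratio of LMNA reversed to 0.0051, 0.0083, 0.0052 and 0.0053, and that of LMNB2 to 0.0044, 0.0077, 0.125 and 0.125, with median-of-ratios scaling, upper-quartile scaling and FPKM with pseudocounts of 1 and 0.1. Adding pseudogene counts changed no count, and summing lines of a name could not, as each of the 10 genes had 1 line. Relative to shCon, the balance of A-type to B-type lamins was 0.924 in FPKM and 0.983 in counts per transcript length, and that of vimentin to keratins 1.14 and 1.11; that alternative was chosen after seeing the data. Why the results move with these settings was not tested. The scalings and FPKM shift the median of all genes by at most 0.07 on the log2 scale. With 1 library per group, differences of this size have no measure of culture-to-culture spread, and depth limits NES.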

Other observations

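The 4 genes LMNA, LMNB2, KRT8 and KRT18 had CPM ratios between 0.9791 and 0.9796, and count ratios between 1.0031 and 1.0035, although the counting interval of the best counted of them, LMNA, ran from 0.962 to 0.998. This likeness was noticed after the values were seen and was not tested.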
